A study of Mus musculus with 14 samples.

Results

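Chromatin accessibility was followed at 10 genes of early lymphoid development in LT-HSCs, the long-term haematopoietic stem cells of the mouse: Flt3, Il7r, Ikzf1, Foxo1, Ebf1, Pax5, Rag1, Rag2, Dntt and Blnk. A peak was given to one of them when the gene's span was the nearest protein-coding span within 50 kb, or when the peak lay within 1 kb of one of its annotated ends. This gave 49 of the 57289 consensus peaks, each 700 bp long. Of these, 8 lay at an end of their own gene and 40 lay away from any gene end. The remaining one, the peak of Rag2, lay at the end of the neighbouring gene Iftap. Ends are those of the gene span, so a peak over the second annotated start of Ikzf1, inside the span, counts among the 40. Peaks are named by the distance of their centre from the nearest annotated start of the gene, so Flt3 +11.4 kb lies 11.4 kb into Flt3.

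Lymphoid priming is the low-level opening or transcription of lymphoid genes in multipotent cells before they commit. In the usual account, the cytokine receptors FLT3 and IL-7 receptor support lymphoid progenitors, the factors Ikaros, FOXO1, EBF1 and PAX5 install the B-cell programme in turn, and the recombinase RAG1 with RAG2 and the polymerase TdT (Dntt) then build the antigen receptor genes. Lymphoid output is known to decline with age.

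Bulk ATAC-seq, in which the transposase Tn5 cuts accessible DNA, was available for 14 libraries of C57BL/6 bone marrow LT-HSCs sorted as Lin- Sca1+ cKit+ CD34- Flt3-. The young group (10 to 16 weeks, n = 4) and the aged group (over 80 weeks, n = 5) were untreated, and the aged Ri group (n = 5) received the RhoA inhibitor Rhosin at 100 µM. All cells, controls included, spent 16 h in culture medium with 10% serum at 37 °C, 3% oxygen and 5% carbon dioxide. The gate removes cells with FLT3 protein on their surface, and its bearing on the accessibility of the Flt3 gene was not tested. The series describes biological replicates, and the number of animals per library is not given in the sources used here.

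Library totals ran from 765533 to 3176246 counts, and the member peaks together held 464 (young 3) to 2238 (young 1) counts. HSC markers had peaks at 12 of 12 genes, summing to 1015 to 1853 CPM (counts per 1e+06 counts, scaled as in the tests). Their lowest library was young 1, and all others reached at least 1214 CPM. They moved with age: the range was 1015 to 1428 CPM in young, 1337 to 1853 in aged and 1392 to 1806 in aged Ri libraries. In edgeR 13 of 102 HSC marker peaks were higher and 0 lower in aged than in young cells. Over all peaks, 4.45% were higher and 1.26% lower. Without young 1 the HSC marker counts were 5 and 0, where 1.3% of all peaks were higher and 0.111% lower. Mature B-cell markers, among them Cd79a and Cd79b of the B-cell receptor and the kinase gene Blk, had 12 peaks at 6 of 6 genes. Their sum was 267 CPM in young 1, 116 to 183 in the other young libraries, 79.3 to 114 in aged and 62.0 to 104 in aged Ri libraries. Every young library, and not young 1 alone, thus lay above every aged and aged Ri library. T-cell and NK markers had 9 peaks at 4 of 7 genes (93.8 to 181 CPM). Cd3d, Lck, Zap70 and Cd2 had peaks, and Cd3e, Cd3g and Ncr1 had none. Erythroid markers had 6 peaks at 4 of 5 genes, with none at Hba-a1, and were higher in every aged (93.1 to 139 CPM) than in every young library (71.1 to 86.6 CPM), with 77.1 to 100.4 CPM in aged Ri libraries. Young 1 therefore stood apart before any test, with the most counts at B-cell markers and the fewest at HSC markers. Each comparison with young cells is given with and without it, and in bulk libraries more cells of a type and more accessible chromatin per cell cannot be told apart.

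The same library led at the lymphoid genes. Young 1 was the highest of the 14 libraries at 20 of the 48 member peaks that passed the filter on low counts, while it led at 11.3% of all 56235 peaks tested. Summed over the 49 member peaks, young 1 reached 994 CPM, the other young libraries 748, 659 and 659 CPM, the aged libraries 588 to 733 CPM and the aged Ri libraries 577 to 681 CPM. By gene, young 1 was the highest library for Rag1, Ebf1, Pax5, Il7r, Flt3, Foxo1 and Blnk, and not for Rag2, Dntt or Ikzf1. The part of other cell types in these values was not tested.

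**Figure D1:**
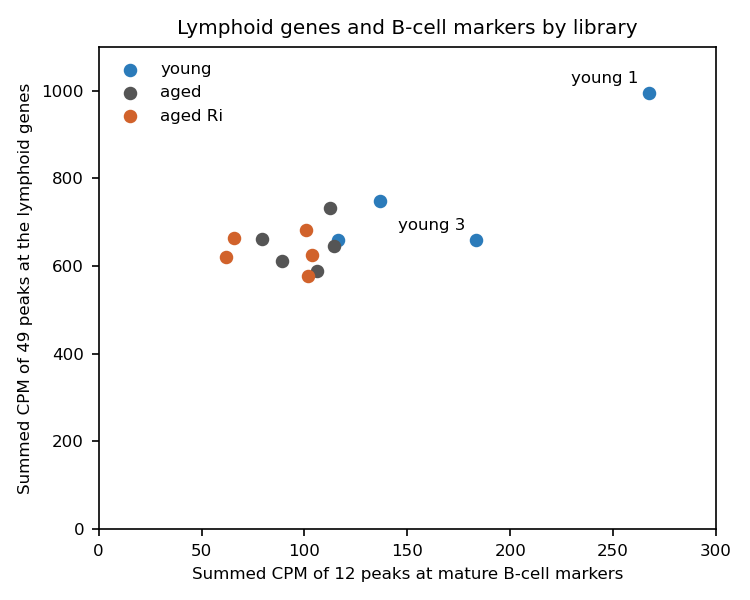
Summed CPM of the 49 peaks at the 10 lymphoid genes (vertical axis) against the summed CPM of 12 peaks at mature B-cell markers (horizontal axis), 1 point per library, coloured by group. Young 1 lies at 267 and 994 CPM, and the other 13 libraries lie between 62.0 and 183 on the horizontal and 577 and 748 on the vertical axis.

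Promoters of 4 members are shown because their start peaks or the peaks inside the gene carry the results. In edgeR the Rag1 start peak was lower in aged and aged Ri than in young cells. The Blnk start peak was lower than in young cells in aged Ri cells alone. None of these calls held without young 1. Flt3 differed inside the gene, and Foxo1 held the only EBF match. Each run is the 250 bases upstream of the annotated start, 5′ to 3′ on the gene's strand (RefSeq, GRCm38.p6). Capitals mark matches to the motifs searched. The windows lie at chr2:101649533-101649782 (Rag1, minus strand), chr19:40994222-40994471 (Blnk, minus strand), chr5:147400490-147400739 (Flt3, minus strand) and chr3:52268087-52268336 (Foxo1, plus strand).
Rag1: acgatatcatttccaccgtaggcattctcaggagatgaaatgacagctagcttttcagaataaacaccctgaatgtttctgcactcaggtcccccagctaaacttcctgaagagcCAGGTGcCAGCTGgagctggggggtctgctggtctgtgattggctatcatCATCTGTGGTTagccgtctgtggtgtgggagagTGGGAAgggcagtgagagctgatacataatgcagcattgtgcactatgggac
Blnk: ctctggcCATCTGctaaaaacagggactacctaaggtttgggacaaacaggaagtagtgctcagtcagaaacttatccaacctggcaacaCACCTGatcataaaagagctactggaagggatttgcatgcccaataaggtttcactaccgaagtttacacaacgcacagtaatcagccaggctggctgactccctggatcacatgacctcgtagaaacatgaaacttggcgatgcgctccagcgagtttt
Flt3: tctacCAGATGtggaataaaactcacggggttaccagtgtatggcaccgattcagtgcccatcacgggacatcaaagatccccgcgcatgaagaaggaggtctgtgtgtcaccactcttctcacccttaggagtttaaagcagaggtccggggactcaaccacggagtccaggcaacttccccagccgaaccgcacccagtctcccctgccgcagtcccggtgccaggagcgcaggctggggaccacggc
Foxo1: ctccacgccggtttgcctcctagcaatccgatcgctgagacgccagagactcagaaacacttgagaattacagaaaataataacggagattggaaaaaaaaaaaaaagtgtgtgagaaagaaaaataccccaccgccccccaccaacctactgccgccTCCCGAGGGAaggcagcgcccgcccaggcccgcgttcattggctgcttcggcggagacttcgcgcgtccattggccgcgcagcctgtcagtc

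All 250 bases lay inside the start peak at Rag1, Blnk and Foxo1, and 238 of them at Flt3. All 10 genes matched the promoter table, with 12 annotated starts. Both strands were searched, and matches may overlap, as do an E-box and the RUNX match of Rag1 at 85 and 81 bases before the start. The EBF motif (TCCC followed, after 2 bases of any kind, by GGGA) occurred at 1 of the 12 starts, in Foxo1 92 bases before it, and in 0.779% of all 32851 promoters. The E-box (CANCTG) occurred at 4 starts, those of Rag1, Flt3, Il7r and Blnk, against 44.8% of all promoters, and Rag1 held 3 of them. The RUNX motif (TGTGGTT) and the Ikaros motif (TGGGAA) occurred each at a Rag1 and an Ebf1 start, against 4.40% and 21.6% of promoters. No start held the FOXO motif (TGTTTAC, 3.17% of promoters) or the ETS motif bound by PU.1 (GAGGAAGT, 2.44%) in this window. These are matches of letters only.

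The first question was how the lymphoid genes differ between aged and young LT-HSCs. In aged cells 2 peaks fell, at the start of Rag1 and inside Flt3, and 3 peaks rose, inside Flt3, Ebf1 and Foxo1. These 5 of 48 tested peaks passed at an edgeR adjusted p under 0.05, where 5.72% of all peaks did (4.45% higher and 1.26% lower). Without young 1, 1 peak passed, Flt3 +11.4 kb, where 1.41% of all peaks did. Without sequencing batch 3 (young 4, aged 5 and aged Ri 5), a setting chosen after seeing the data, 14 of 46 passed, 5 higher and 9 lower, where 11.5% of all peaks did. The number of calls and the balance of their directions thus differed with the libraries used. At an unadjusted p under 0.05, 5 members were higher and 12 lower, against 22.3% of all peaks in either direction. The median log2 fold change of the 48 peaks was -0.18 (all peaks -0.01), and without young 1 it was 0.02 over 47 peaks (all peaks -0.01). The groups did not overlap at 2 member peaks that were higher in aged cells and at 0 that were lower, against 4.41% and 1.67% of all peaks.

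The second question was what Rhosin changes in aged cells. None of the 48 member peaks passed in aged Ri against aged cells in edgeR, where 0.446% of all peaks did. At an unadjusted p under 0.05, 1 was higher and 1 lower (10.2% of all peaks in either direction), DESeq2 also called 0, and the median log2 fold change was -0.08 (all peaks -0.02). No member had groups that did not overlap, against 0.903% of all peaks higher and 0.662% lower. At these depths, data were simulated for this comparison with 200 of 56235 peaks changed. A true 2-fold change was recovered at 38 of 200 and a 3-fold change at 150 of 200.

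Against young cells, aged Ri cells were lower at 9 member peaks and higher at 1, so that 10 of 48 passed in edgeR (11.5% of all peaks, 3.56% lower and 7.90% higher). The lower peaks lay in or near Rag1, Blnk, Pax5, Dntt, Ebf1 and Flt3, and the higher one in Flt3. Without young 1, 3 passed, all within Flt3 (6.80% of all peaks). At an unadjusted p under 0.05, 4 members were higher and 12 lower (27.7% of all peaks in either direction). The median log2 fold change was -0.18 (all peaks -0.03), and -0.02 without young 1 (all peaks -0.01). The groups did not overlap at 2 members higher and 4 lower in aged Ri cells, against 6.40% and 2.45% of all peaks. This comparison shares its young libraries with the first and its aged Ri libraries with the second.

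A property of the whole libraries moved with age. Gene ends took 48.7% ± 1.94 of all counts in young (SD, n = 4), 42.6% ± 4.40 for aged (SD, n = 5) and 42.5% ± 4.55 for Rhosin-treated libraries (SD, n = 5). With this share as a covariate, 0 members passed in edgeR in aged against young cells (0.258% of all peaks; 3 higher and 2 lower at an unadjusted p under 0.05) and 1 in aged Ri against young, Flt3 +11.4 kb (0.994% of all peaks). Aged 5, with a share of 49.6%, lay among the young libraries, and all other aged and all aged Ri libraries lay under them. The share is taken from the same counts and largely follows age. Where a call is lost with it as covariate, share and age therefore cannot be told apart.

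**Figure D2:**
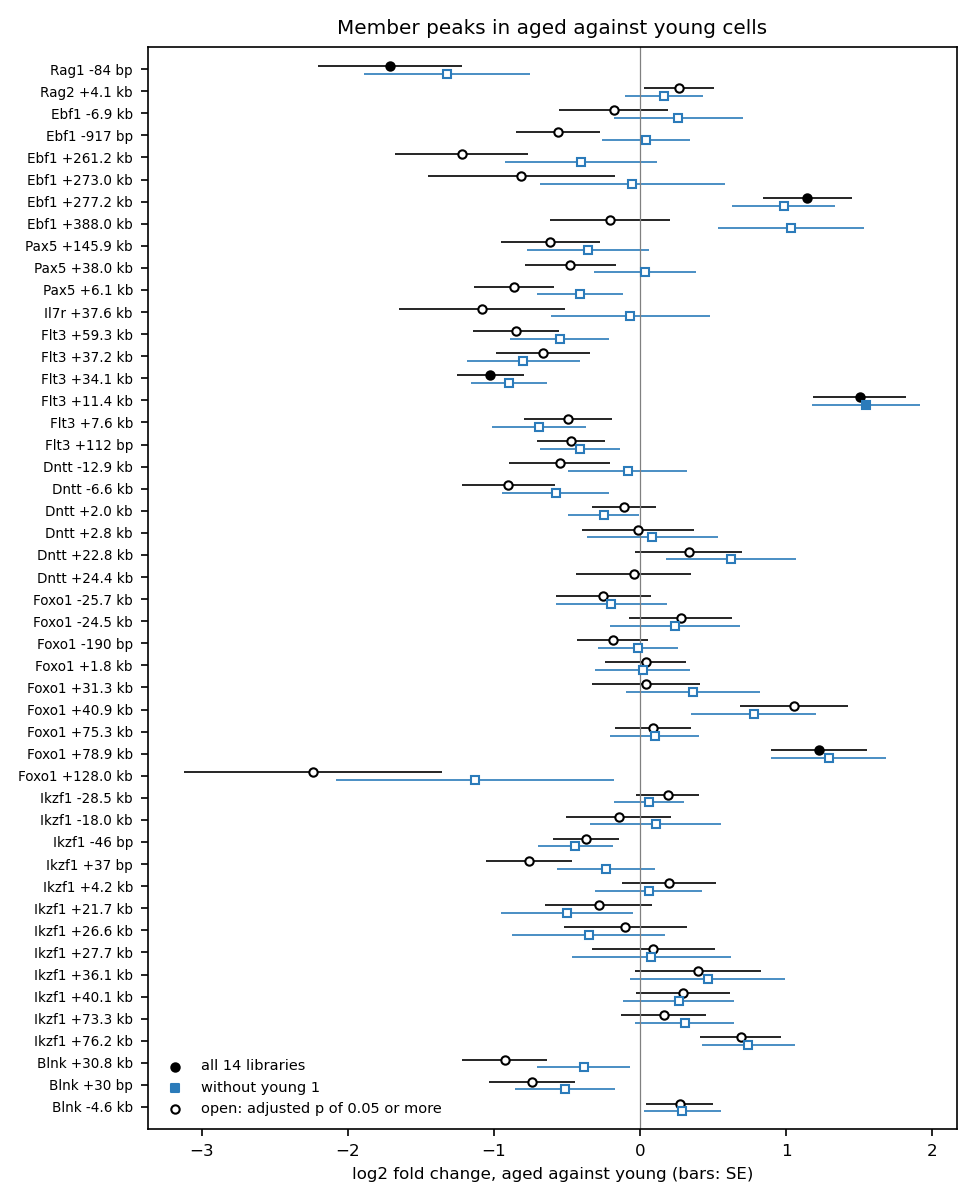
The log2 fold change of each tested member peak in aged against young cells (horizontal axis, bars are SE) with all 14 libraries (circles) and without young 1 (squares), with filled symbols for an edgeR adjusted p under 0.05. The 5 filled circles lie at Rag1, Ebf1, Flt3 (2 peaks) and Foxo1, and the 1 filled square at Flt3 +11.4 kb.

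Flt3, the receptor for FLT3 ligand on multipotent and lymphoid progenitors, had 6 peaks, all overlapping its 69.7 kb span on chromosome 5. In aged cells accessibility fell at 1 peak deep in the gene and rose at 1 peak nearer its start. At +34.1 kb (chr5:147366050-147366749), its most accessible peak, the young libraries held 44.4, 39.9, 22.7 and 42.1 CPM, the aged 18.4, 16.4, 14.7, 19.8 and 24.9 CPM and the aged Ri 14.6, 15.3, 11.3, 17.3 and 17.8 CPM. Aged 5 exceeded young 3, and all aged Ri libraries lay under all young ones. The peak was 2.03-fold lower in aged cells (log2 -1.02 ± 0.23 SE; edgeR adjusted p = 0.00517) and 2.49-fold lower in aged Ri cells (log2 -1.32 ± 0.23 SE; edgeR adjusted p = 2.13e-04). Without young 1 the first call was lost (log2 -0.90, edgeR adjusted p = 0.0679) and the second held (log2 -1.18, edgeR adjusted p = 0.00376). With the gene-end share as covariate both were lost (edgeR adjusted p = 0.336 and 0.0579).

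At Flt3 +11.4 kb (chr5:147388754-147389453) the direction was the opposite. Young libraries held 4.89, 6.19, 2.84 and 7.26 CPM, aged 15.2, 11.7, 25.2, 16.4 and 12.9 CPM and aged Ri 10.4, 17.9, 31.0, 20.9 and 14.6 CPM. Every young library lay under every aged and aged Ri library. The peak was 2.84-fold higher in aged (log2 1.504 ± 0.32 SE; edgeR adjusted p = 0.00364) and 3.24-fold higher in aged Ri cells (log2 1.69 ± 0.31 SE; edgeR adjusted p = 4.94e-04). Both calls held with any 1 library left out (log2 1.32 to 1.80 and 1.51 to 1.99), and within sequencing batches the log2 difference of aged from young was 1.28, 2.02 and 0.75. The gene-end share as covariate removed the aged call (edgeR adjusted p = 0.177) and left the aged Ri call. Aged Ri and aged cells were not distinguished here (log2 0.19, 95% interval -0.30 to 0.68).

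Further into the gene, Flt3 +59.3 kb (chr5:147340807-147341506) held 38.6, 26.1, 17.0 and 11.6 CPM in young, 16.0, 12.9, 9.02, 14.4 and 14.7 in aged and 7.29, 12.8, 3.87, 10.8 and 8.09 in aged Ri libraries. Aged Ri 2 exceeded young 4, so the groups overlapped. It was 2.86-fold lower in aged Ri than in young cells (log2 -1.52 ± 0.30 SE; edgeR adjusted p = 0.00108), also without young 1 (edgeR adjusted p = 0.0230), while aged against young gave log2 -0.85 (edgeR adjusted p = 0.0801). The aged Ri call was lost with the gene-end share as covariate (edgeR adjusted p = 0.397). Flt3 +37.2 kb (chr5:147362906-147363605) held 13.8, 13.7, 4.26 and 10.6 CPM in young, 12.03, 8.79, 6.02, 5.47 and 5.79 in aged and 8.85, 5.96, 2.58, 4.67 and 6.47 in aged Ri libraries, with overlapping ranges. It was 2.09-fold lower in aged Ri than in young cells (log2 -1.06 ± 0.32 SE; edgeR adjusted p = 0.0290), a call lost when young 1, young 2 or aged Ri 3 was left out, with an edgeR adjusted p between 0.0541 and 0.179.

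The start peak of Flt3 (chr5:147400028-147400727) did not pass in any comparison. It held 29.3, 24.7, 27.0 and 21.3 CPM in young, 20.1, 17.6, 15.8, 13.7 and 25.4 in aged and 23.4, 18.7, 16.1, 19.1 and 21.0 in aged Ri libraries. The groups overlapped, and the log2 difference of aged from young was -0.47 (95% interval -0.93 to -0.02; edgeR adjusted p = 0.222). Summed away from the gene end, Flt3 peaks were lower in aged (log2 -0.49 ± 0.16 SE; edgeR adjusted p = 0.0488) and aged Ri cells (log2 -0.65 ± 0.16 SE; edgeR adjusted p = 0.00666) than in young ones, and both calls were lost without young 1 (edgeR adjusted p = 0.283 and 0.0673). The first call was also lost without any 1 of young 2, aged 1, aged 2, aged 3 or aged 4 (0.0600 at the least).

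**Figure D3:**
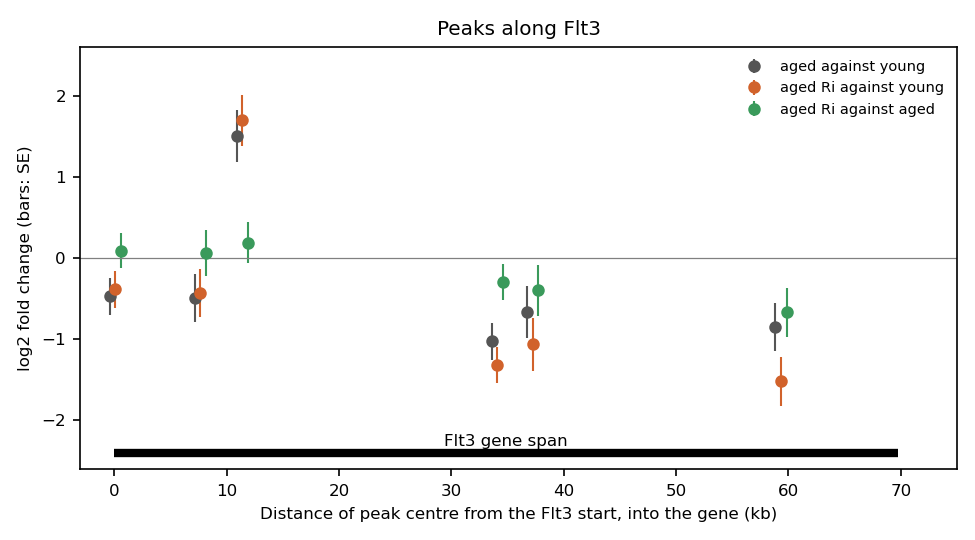
The log2 fold change of the 6 Flt3 peaks (vertical axis, bars are SE) by the distance of their centre from the gene start (horizontal axis, kb), for the 3 comparisons, with the gene span as a black bar. The +11.4 kb peak lies at 1.504 and 1.69 against young cells and the +34.1 kb peak at -1.02 and -1.32, while the comparison of aged Ri with aged cells stays between -0.67 and 0.19.

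Il7r, which encodes the alpha chain of the interleukin-7 receptor, had 1 peak, 13505 bp beyond the gene span and 37.6 kb from its start (chr15:9491955-9492654). The young libraries held 33.3, 6.87, 17.0 and 0.967 CPM, the aged 8.02, 3.51, 5.26, 14.4 and 2.67 CPM and the aged Ri 4.69, 4.26, 1.29, 7.19 and 2.02 CPM. The young group ran from the lowest to the highest of all 14 libraries, and the counts were low throughout. As a single peak it missed the threshold in aged Ri against young cells (log2 -1.83 ± 0.59 SE; edgeR adjusted p = 0.0574). In the table of gene sums, where the same peak is the only one, it passed (log2 -1.85 ± 0.58 SE; edgeR adjusted p = 0.0420), and that call was lost when 1 of young 1, young 3, aged Ri 1, aged Ri 2 or aged Ri 3 was left out, with an edgeR adjusted p between 0.0873 and 0.411.

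Ikzf1, which encodes Ikaros, a zinc-finger factor needed for the earliest lymphoid steps, had the most peaks, 12, of which 10 lay in its span. None passed in any comparison. Its summed signal was 153 ± 13.6 CPM for the young (SD, n = 4), 160 ± 24.9 for the aged (SD, n = 5) and 158 ± 13.4 for the Rhosin-treated libraries (SD, n = 5). The peak at its first annotated start (chr11:11685530-11686229) held 19.1, 26.8, 31.2 and 39.7 CPM in young, 12.8, 20.5, 21.4, 28.7 and 21.8 in aged and 17.2, 18.7, 24.2, 24.5 and 30.3 in aged Ri libraries, with overlapping ranges. Its log2 difference of aged from young was -0.37 (95% interval -0.81 to 0.08; edgeR adjusted p = 0.340). At the peak over the second annotated start (+37 bp, chr11:11689865-11690564) the difference was larger, -0.76 (95% interval -1.34 to -0.18, edgeR adjusted p = 0.120). Within sequencing batches it was -1.65, -0.07 and -0.46 there. The strongest Ikzf1 peak, 27.2 kb upstream of the span (-28.5 kb, chr11:11657062-11657761), averaged 40.7 ± 11.2 CPM for the young (SD, n = 4), 44.05 ± 12.8 for the aged (SD, n = 5) and 38.7 ± 5.53 for the Rhosin-treated libraries (SD, n = 5).

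Foxo1, a forkhead factor that acts on Il7r and the Rag genes in B-cell progenitors, had 9 peaks. Its start peak (chr3:52267798-52268497) held 33.8, 30.2, 21.3 and 29.99 CPM in young, 20.1, 25.2, 18.8, 28.1 and 37.4 in aged and 16.7, 34.9, 19.4, 28.4 and 41.6 in aged Ri libraries. The 3 groups overlapped, with a log2 difference of aged from young of -0.19 (95% interval -0.67 to 0.29; edgeR adjusted p = 0.691). The next most accessible Foxo1 peak, at +75.3 kb, averaged 15.05 ± 3.95 CPM for the young (SD, n = 4), 17.3 ± 6.33 for the aged (SD, n = 5) and 14.8 ± 3.03 for the Rhosin-treated libraries (SD, n = 5) and did not pass. One peak within the gene rose: Foxo1 +78.9 kb (chr3:52346865-52347564) held 6.66, 3.44, 7.10 and 5.32 CPM in young, 10.4, 15.2, 20.7, 11.6 and 8.46 in aged and 11.98, 14.5, 11.6, 8.99 and 8.89 in aged Ri libraries. All aged and aged Ri libraries lay above all young ones. It was 2.34-fold higher in aged than in young cells (log2 1.23 ± 0.33 SE; edgeR adjusted p = 0.0207), a call lost when young 1, young 2 or aged 3 was left out, with an edgeR adjusted p between 0.0845 and 0.135, and missed the threshold in aged Ri against young (log2 0.93, edgeR adjusted p = 0.0590).

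The member peak farthest from its gene also belonged to Foxo1, 45886 bp past the span, and showed how much 1 library can weigh. There young 1 held 66.6 CPM, the other young libraries 13.7, 18.5 and 2.90, the aged 1.504 to 12.3 and the aged Ri 0.646 to 10.9 CPM. The log2 difference of aged from young, -2.24 ± 0.88 SE (edgeR adjusted p = 0.175), was the lowest of all members. Without young 1 it was -1.13 (edgeR adjusted p = 0.623). The next peak on that side lay 50866 bp from Foxo1, just outside the 50 kb limit, with a log2 difference of -0.76.

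**Figure D4:**
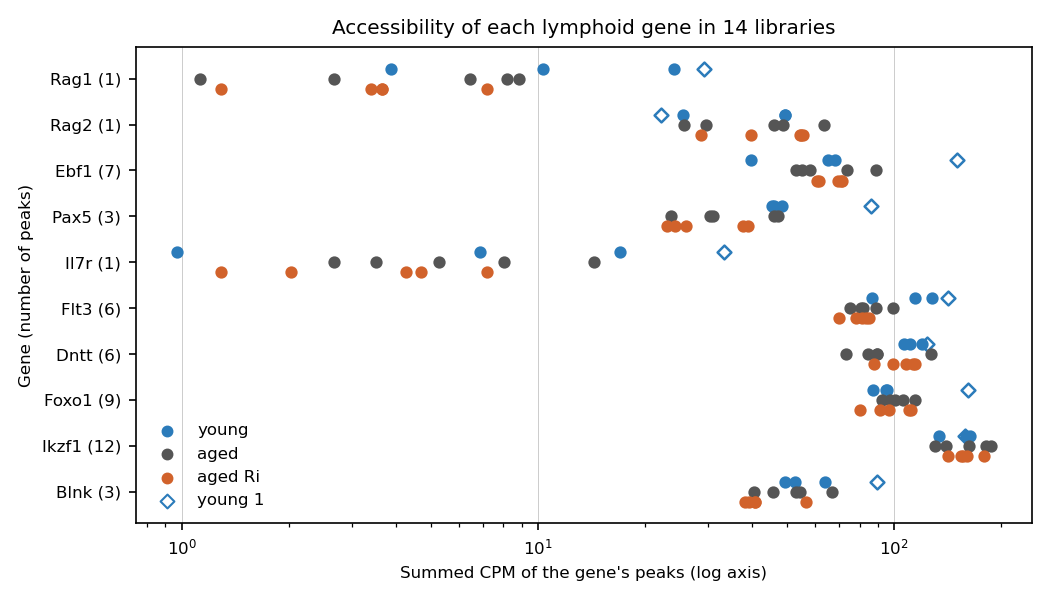
Summed CPM of each gene's peaks (horizontal log axis) in the 14 libraries, 1 point per library coloured by group, with young 1 as an open diamond and the number of peaks in brackets. Young 1 is the highest point for 7 of the 10 genes, among them Ebf1 (150.1 CPM), Pax5 (86.2 CPM) and Foxo1 (160.8 CPM), and the Ikzf1 libraries of all groups share the range of 130.0 to 187 CPM.

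Ebf1, the factor that specifies B-cell identity, had 7 peaks over and beside its 390.0 kb span on chromosome 11. One of them, at +310 bp, fell under the filter on low counts, with 0 to 9.77 CPM. The strongest peak at an end (-917 bp, chr11:44616834-44617533) held 46.2, 21.3, 21.3 and 12.6 CPM in young, 13.6, 20.5, 12.03, 21.2 and 19.6 in aged and 18.2, 28.1, 30.3, 31.6 and 25.1 in aged Ri libraries. Only aged Ri 1 lay within the aged range, and the other 4 aged Ri libraries lay above it. The log2 difference of aged Ri from aged was 0.63 ± 0.26 SE (edgeR adjusted p = 0.373). Taking each aged library and its equally numbered Rhosin-treated one as a pair, it was 0.65 ± 0.19 SE and passed (edgeR adjusted p = 0.0249, replicate block), the only one of 44 members to do so, where 4.42% of all peaks did.

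Within Ebf1, estimates at neighbouring peaks differed in direction, but no comparison called both. At +277.2 kb (chr11:44897079-44897778) the young libraries held 6.66, 9.62, 9.94 and 5.32 CPM, the aged 15.2, 22.8, 21.1, 16.4 and 9.80 CPM and the aged Ri 15.6, 11.1, 12.9, 8.63 and 13.3 CPM. Aged 5 and aged Ri 4 reached down into the young range. The peak was 2.21-fold higher in aged than in young cells (log2 1.145 ± 0.31 SE; edgeR adjusted p = 0.0206), a call lost when young 1, aged 2 or aged 3 was left out, with an edgeR adjusted p between 0.0667 and 0.154. At +261.2 kb (chr11:44881046-44881745) young libraries held 23.1, 7.56, 12.8 and 2.42 CPM, aged 4.01, 4.10, 4.51, 10.3 and 2.23 CPM and aged Ri 3.12, 5.11, 1.29, 7.19 and 3.64 CPM. Young 1 stood highest, and young 2 and young 4 lay within the aged range. In aged against young cells the +261.2 kb peak did not pass (log2 -1.22, edgeR adjusted p = 0.112). Within sequencing batches that difference was -2.25, -0.46 and -0.08. This peak was 2.76-fold lower in aged Ri than in young cells (log2 -1.47 ± 0.45 SE; edgeR adjusted p = 0.0371), and the call was lost when 1 of young 1, young 3, aged Ri 1, aged Ri 2 or aged Ri 3 was left out, with an edgeR adjusted p between 0.0662 and 0.505.

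Pax5, which maintains B-cell commitment, had 3 peaks inside its span and none at its start. The strongest (+6.11 kb, chr4:44704235-44704934) held 49.7, 27.5, 22.7 and 28.5 CPM in young, 19.2, 15.2, 13.2, 26.0 and 18.7 in aged and 13.5, 11.9, 12.3, 26.6 and 23.0 in aged Ri libraries. Aged 4, aged Ri 4 and aged Ri 5 reached the young range. It was 1.85-fold lower in aged Ri than in young cells (log2 -0.89 ± 0.27 SE; edgeR adjusted p = 0.0308), which ended when 1 of young 1, aged Ri 1, aged Ri 2 or aged Ri 3 was left out, with an edgeR adjusted p between 0.0703 and 0.382. At the other 2 peaks (+38.0 and +146 kb) every aged Ri library lay under every young one, without passing the test (edgeR adjusted p = 0.0519 and 0.0509). Summed, the 3 peaks gave 56.5 ± 19.8 CPM for the young (SD, n = 4), 35.7 ± 10.4 for the aged (SD, n = 5) and 29.9 ± 7.65 for the Rhosin-treated libraries (SD, n = 5). The sum was lower in aged Ri than in young cells (log2 -0.92 ± 0.23 SE; edgeR adjusted p = 0.00967), and not without young 1 (log2 -0.48, edgeR adjusted p = 0.174).

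Rag1, a subunit of the V(D)J recombinase, had a single peak, over its start (-84 bp, chr2:101649267-101649966). The young libraries held 29.3, 10.3, 24.1 and 3.87 CPM, the aged 8.82, 6.44, 1.13, 8.21 and 2.67 CPM and the aged Ri 3.64, 3.41, 1.29, 7.19 and 3.64 CPM. The young libraries split into young 1, 2 and 3 above all aged ones and young 4 among them. The peak was 3.28-fold lower in aged (log2 -1.71 ± 0.49 SE; edgeR adjusted p = 0.0461) and 3.96-fold lower in aged Ri cells (log2 -1.98 ± 0.49 SE; edgeR adjusted p = 0.0138). The first call was lost without any 1 of 7 libraries: young 1, 2 or 3 or aged 1, 2, 3 or 5 (edgeR adjusted p from 0.0531 to 0.263). The second was lost without young 1 alone (log2 -1.62, edgeR adjusted p = 0.0737). Within sequencing batches the log2 difference of aged from young was -1.82, -1.92 and -0.40.

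Rag2, the partner subunit, had a peak of a different kind, since it also lies at the end of Iftap (chr2:101628472-101629171, +4.11 kb). It averaged 36.6 ± 14.8 CPM for the young (SD, n = 4), 42.7 ± 15.3 for the aged (SD, n = 5) and 46.6 ± 12.03 for the Rhosin-treated libraries (SD, n = 5), and its log2 difference of aged from young was 0.27 (95% interval -0.20 to 0.74; edgeR adjusted p = 0.537). Young 1, with 22.2 CPM, was its lowest library, unlike at Rag1. Whether this peak belongs to Rag2 or to Iftap was not tested.

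Dntt, which encodes the polymerase that adds untemplated bases at V(D)J joins, had 6 peaks, none within 1 kb of its start. Its strongest (+2.00 kb, chr19:41030927-41031626) was the most accessible of all member peaks, above 95.1% of all peaks by mean CPM, with 61.2 ± 19.4 CPM for the young (SD, n = 4), 53.0 ± 16.6 for the aged (SD, n = 5) and 63.5 ± 12.5 for the Rhosin-treated libraries (SD, n = 5). It did not pass in any comparison (edgeR adjusted p from 0.638 to 0.807). A peak upstream (-6.64 kb, chr19:41022287-41022986) held 39.5, 16.5, 19.9 and 9.67 CPM in young, 6.42, 17.6, 6.39, 12.3 and 14.2 in aged and 14.6, 11.9, 4.52, 7.91 and 7.68 in aged Ri libraries. Young 1 was far above the rest, and young 2 and young 4 lay within the aged range. It was 2.43-fold lower in aged Ri than in young cells (log2 -1.28 ± 0.32 SE; edgeR adjusted p = 0.00762), and not without young 1 (log2 -0.93, edgeR adjusted p = 0.126).

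Blnk, the adaptor that links the pre-B-cell receptor to its kinases, had 3 peaks. Its start peak (+30 bp, chr19:40993842-40994541) held 29.3, 14.4, 22.7 and 13.1 CPM in young, 16.8, 10.5, 7.52, 17.1 and 9.80 in aged and 10.9, 10.2, 5.49, 12.9 and 10.1 in aged Ri libraries. Every aged Ri library lay under every young one, by a small margin at aged Ri 4 and young 4. It was 2.00-fold lower in aged Ri than in young cells (log2 -0.997 ± 0.29 SE; edgeR adjusted p = 0.0232), a call lost when 1 of young 1, young 3, aged Ri 1 or aged Ri 3 was left out, with an edgeR adjusted p between 0.0585 and 0.180. Inside the gene, Blnk +30.8 kb (chr19:40963081-40963780) held 39.1, 19.2, 12.8 and 16.9 CPM in young, 12.03, 14.1, 10.2, 13.0 and 11.6 in aged and 9.37, 5.96, 10.0, 16.5 and 13.7 in aged Ri libraries. The ranges overlapped, with young 1 far above the rest. It was 1.959-fold lower in aged Ri than in young cells (log2 -0.97 ± 0.29 SE; edgeR adjusted p = 0.0254), and the call was lost when 1 of young 1, aged Ri 1, aged Ri 2 or aged Ri 3 was left out, with an edgeR adjusted p between 0.0699 and 0.418. The most accessible Blnk peak, upstream at -4.59 kb, averaged 21.98 ± 5.77 CPM for the young (SD, n = 4), 27.6 ± 8.65 for the aged (SD, n = 5) and 21.9 ± 5.01 for the Rhosin-treated libraries (SD, n = 5) and did not pass.

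**Figure D5:**
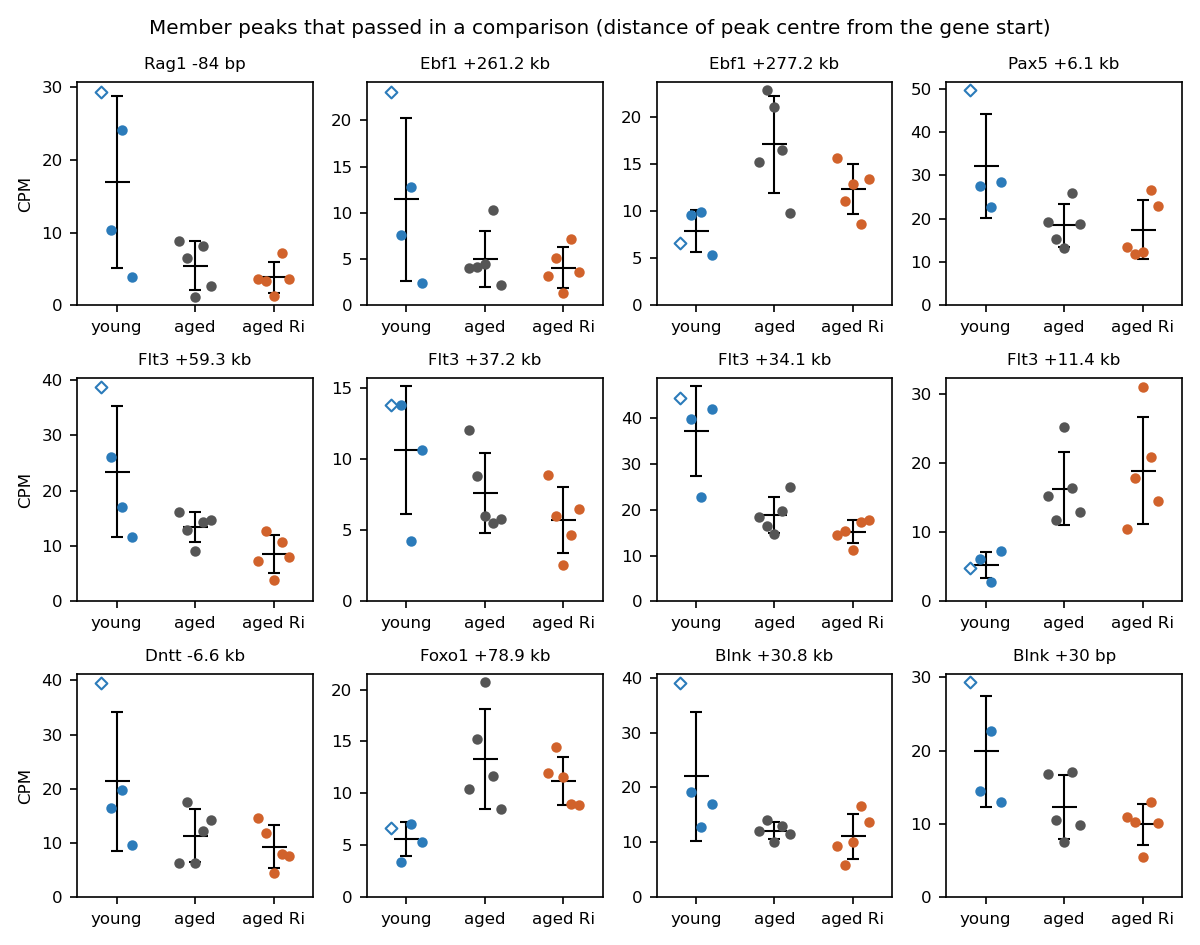
CPM by library for the 12 member peaks that passed in a comparison (vertical axis from 0, points are libraries, open diamonds young 1, black bars mean and SD). Young 1 is the highest point in 9 of the 12 panels, and the groups are clear of each other in aged against young cells at Flt3 +11.4 kb and Foxo1 +78.9 kb.

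Summed over both annotated ends, 6 members could be tested: Rag1, Ebf1, Flt3, Foxo1, Ikzf1 and Blnk. Except for Ebf1, with 3, each had 1 end peak. Their sums therefore hold the counts already tested as single peaks and are not a separate result. Aged cells were lower at Rag1 (log2 -1.74 ± 0.43 SE; edgeR adjusted p = 0.0487), 1 of 6 where 0.892% of all gene ends passed. This was lost when 1 of young 1, 2 or 3 or aged 1, 2 or 3 was left out, with an edgeR adjusted p between 0.0538 and 0.283. All 6 estimates were below 0 with all libraries, with a median log2 fold change of -0.50 beside -0.24 over all gene ends. It was 5 of 6 without young 1, with the gene-end share as covariate, or scaled over gene ends alone. In the last of these settings the median was -0.27 beside -0.01 over all gene ends. Scaled over gene ends alone, Rag1 did not pass, and the calls over all gene ends moved from 58 higher and 60 lower to 210 higher and 33 lower. Aged Ri cells were lower than young ones at Rag1 (log2 -1.996 ± 0.43 SE; edgeR adjusted p = 0.0115) and Blnk (log2 -0.999 ± 0.27 SE; edgeR adjusted p = 0.0296), 2 of 6 where 5.50% passed. Scaled over gene ends alone, Rag1 still passed and Blnk did not (edgeR adjusted p = 0.0177 and 0.0930), and the calls over all gene ends moved from 237 higher and 491 lower to 520 higher and 155 lower. The Rag1 call was lost without young 1, and the Blnk call without young 1, young 3, aged Ri 1 or aged Ri 3. Against aged cells 0 of 6 passed in edgeR or DESeq2, or at an unadjusted p under 0.05 (0.0453% of all gene ends passed). Without young 1 no member end passed against young cells (0.0607% and 0.667% of all gene ends), although 1 (aged) and 2 (aged Ri) were lower and 1 (aged Ri) higher at an unadjusted p under 0.05 in edgeR.

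Summed away from gene ends, 8 members could be tested. Flt3 passed in aged against young cells (1 of 8, where 9.34% of genes did), none in aged Ri against aged in edgeR, DESeq2 or at an unadjusted p under 0.05 (0.486% of genes), and Flt3, Pax5 and Il7r in aged Ri against young (3 of 8, where 16.6% of genes did). All these were lower. Without young 1, none of the 8 passed in edgeR in either comparison with young cells (2.18% and 9.63% of genes), with 1 and 2 lower at an unadjusted p under 0.05.

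Beyond the 10 members, 67 other genes of the lymphoid programme were followed, of which 66 had peaks (Vpreb1 had none), with 423 peaks tested. In aged against young cells 11 of these were higher and 13 lower in edgeR (5.67%, beside 5.72% of all peaks). Without young 1 the counts were 3 and 0 of 414 (0.725%, beside 1.41% of all peaks). With the share of counts at gene ends held as a covariate, 0 of the 423 peaks passed in edgeR, where 0.258% of all peaks did. The peaks of smallest p lay within Pou2f2, which encodes the B-cell factor OCT2 (log2 -1.47), near the progenitor factor Mef2c (log2 1.71), near Ets1 (log2 1.62) and within the kinase gene Syk (log2 -1.64). Without young 1 those of Mef2c and Ets1 still passed (edgeR adjusted p = 0.0403 and 0.0404), and those of Pou2f2 and Syk did not (0.0710 and 0.157). With the covariate none of these 4 passed (edgeR adjusted p = 0.412, 0.237, 0.216 and 0.849 in the order named). In aged Ri against aged cells 2 peaks were higher and 0 lower (0.473%, beside 0.446% of all peaks). The first lay within Bach2, a repressor of plasma-cell fate (11.5 ± 2.52 to 25.3 ± 7.86 CPM, SD, n = 5 each; log2 1.13 ± 0.26 SE; edgeR adjusted p = 0.0398). The other lay within Runx1, a core haematopoietic factor (6.43 ± 1.76 to 14.5 ± 5.38 CPM, SD, n = 5 each; log2 1.21 ± 0.28 SE; edgeR adjusted p = 0.0429). With aged and Rhosin-treated libraries paired by number, 8 of 396 peaks were higher and 4 lower (3.03%; 4.42% of all peaks), Bach2 and Runx1 among the higher ones (edgeR adjusted p = 9.45e-05 and 5.61e-04, replicate block). In aged Ri against young cells 25 were higher and 27 lower (12.3%, beside 11.5% of all peaks). Without young 1 these were 15 and 8 (5.56%, beside 6.80% of all peaks). With the covariate they were 1 and 0 (0.236%, beside 0.994% of all peaks). With all libraries, the peaks of smallest p in this comparison lay near Ets1 (log2 2.00), Notch1 (log2 -1.36), Ikzf2 (log2 1.72) and Sox4 (log2 -1.34). Each still passed without young 1 (edgeR adjusted p = 0.00194, 0.00528, 0.00458 and 0.0353). With the covariate Ets1 alone of these passed (edgeR adjusted p = 0.0370), and Notch1, Ikzf2 and Sox4 did not (0.0629, 0.0895 and 0.194).

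By group of that list, transcription factors held 9 higher and 10 lower of 288 peaks in aged against young cells, pre-B-cell and B-cell receptor genes 0 and 2 of 54, progenitor signalling genes 2 and 1 of 53, and recombination genes 0 and 0 of 28 in edgeR. Over all peaks, 4.45% were higher and 1.26% lower. The B-cell receptor group summed to 1029 CPM in young 1 and 533 to 738 CPM in the other 13 libraries, and all 6 mature B-cell markers belong to it. The recombination group did not single out young 1, with 1048 CPM there and 596 to 1139 CPM elsewhere.

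Over the 14 libraries, the genes whose summed signal most resembled that of the 10 members, of 7390 genes ranked by Pearson r of log2 CPM, were 9530077C05Rik (r = 0.90), Enthd1 (0.89), Asb2 (0.89), Rnf7 (0.88) and Rad51b (0.88). Young 1 was the highest library of each, for example 154 CPM at Rnf7 against 43.2 to 98.0 elsewhere. Without young 1 the r values of the same genes were 0.82, 0.65, 0.68, 0.74 and 0.59. The libraries share depth and scaling, so these are descriptions.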

How the data were processed

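Bulk ATAC-seq of 14 libraries was used. The deposited matrix holds raw counts per consensus peak, made with featureCounts, SAMtools 1.14 and R 4.2.0 on mm10 per the submitters' processing notes. The aligner, the peak caller and the handling of duplicates are not given in the sources used here. All 14 library columns were used.

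Genes and spans came from RefSeq (GRCm38.p6, the assembly of mm10), and strands and starts from its promoter sequences. Peaks were tested one by one, summed over both ends of a gene (1 kb windows), and summed away from ends (50 kb). Each table was fitted whole with edgeR 4.0.16 in R 4.3.3: filterByExpr by group, TMM over all peaks kept, a robust quasi-likelihood fit with sequencing batch and group as terms, and Benjamini-Hochberg adjustment with a threshold of 0.05. The filter kept 56235 peaks. Intervals of 95% come from the SE. SE came from the log2 fold change and its F statistic, and CPM used the TMM scaling. DESeq2 1.42.0 served as an alternative. Scripts ran in Python 3.11.15 with pandas 2.3.3, and figures in matplotlib 3.10.9.

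On simulated data with 200 peaks changed of 56235, the test recovered 28 at 2-fold and 145 at 3-fold for aged against young, and 38 and 150 for aged Ri against aged. In this simulation most 2-fold changes of single peaks were thus not called. In the real aged against young comparison 3214 peaks passed, so the adjusted threshold there corresponded to a looser unadjusted p. The recovery at that looser level was not measured. Depth was not varied on its own.

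Deviations from the group means correlated between equally numbered aged and aged Ri libraries (r from 0.14 to 0.65 in 5 of 5 pairs, over 25903 peaks averaging 20 counts or more), and by the rule applied here (every r over 0.1) they were treated as pairs in an alternative fit. Equal numbers also share a sequencing batch: with batch removed r ran from -0.22 to 0.47, below 0 in 2 of 5 pairs, and aged Ri 4 correlated more with aged 5 (0.29) than with aged 4 (0.27). Young libraries showed no such pairing. The labels do not say what a number marks, and p-values measure the spread between these libraries.

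The members, gene lists, motifs and tests were chosen with earlier results of these data known. The text names all members, with their strongest peaks, their called peaks (up to 3 per comparison by smallest p), up to 4 list genes per comparison and the 5 genes most alike. Named after their values were seen were 1 further Flt3 peak, 1 further Ikzf1 peak, 2 Pax5 peaks, the Foxo1 peaks at the distance limit and the low Ebf1 peak. Alternatives were other scalings, filters, terms, distances and each library left out. Sequences inside genes and between them were not used here, for want of a genome. A gene of the marker list is not reported here on its own.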

Additional observations from a re-analysis of the deposited data

Results flagged for a closer look

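Among 93 groups of 4 or 5 libraries examined for a single value far from the rest, 4 stood out, and chance alone gives about 1 in 20. The summed Pax5 peaks of young 1 reached 86.2 CPM against 45.4 to 48.4 CPM in the other young libraries. The summed Foxo1 peaks of young 1 reached 160.8 CPM against 87.1 to 95.5 CPM. At Ebf1 +261.2 kb, aged 4 held 10.3 CPM against 2.23 to 4.51 CPM in the other aged libraries. The summed Blnk peaks of aged Ri 4 reached 56.5 CPM against 38.0 to 40.7 CPM in the other aged Ri libraries.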

How the results depend on the processing

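At every called peak and sum the log2 fold change kept its sign with any 1 library left out. Estimates that did not pass could change sign. In aged against young cells 0 of 6 gene-end sums were above 0 with all libraries and 1 of 6 without young 1. Of the 8 sums away from gene ends, 1 was above 0 with all libraries and 4 without young 1. The members' median log2 fold change in aged against young cells turned from -0.18 to 0.02 without young 1, and the balance of calls turned from 3 higher and 2 lower to 3 and 5 with loess offsets and 5 and 9 without batch 3. In aged Ri against aged cells, 0 members passed under each setting except the replicate block, which pairs aged and aged Ri libraries by number and called 1 peak; it changed no other call there. For members called in aged against young cells (peaks 5, ends 1, other-peak sums 1), leaving out 1 library gave 1 to 14 peaks, 0 to 1 ends and 0 to 3 sums, with 14 peaks when young 4 was left out, 8 for aged 4, 3 for aged 2 and for young 2, 2 for aged 3 and 1 for young 1. For aged Ri against young (10, 2 and 3) the ranges were 3 to 15, 0 to 2 and 0 to 4, with 15 peaks when young 4 was left out, 6 for aged Ri 1, 5 for aged Ri 3 and 3 for young 1. Without young 1, 1.41% of all peaks passed for aged and 6.80% for aged Ri against young. For the other libraries left out the share of all peaks is not given, so those counts cannot be set against it. With the share of counts at gene ends held as a term, the counts were 0, 0 and 0 for aged and 1, 0 and 0 for aged Ri against young. Loess offsets gave 8 peaks and 2 sums for aged against young, and the shares over all features are not given for that setting. Without batch 3, an addition made after seeing the data, aged against young gave 14 peaks, 2 ends and 3 sums. The shares over all features rose as well, to 11.5% of peaks, 8.98% of ends and 16.9% of sums. With all libraries they were 5.72%, 0.892% and 9.34%. The ends gave 0 for aged against young with DESeq2, upper-quartile scaling, no batch term, the replicate block or gene ends scaled alone, and for aged Ri against young 0 with no batch term, 1 with gene ends scaled alone and 1 with the block. Under the block, 30.4% of all gene ends passed for aged and 10.8% for aged Ri against young. The sums gave 0 for aged against young with no batch term, 2 groups only or the block (9.83% of all sums under the block). The block by number gave 3 peaks for aged Ri against young (6.92% of all peaks), where same-numbered libraries did not deviate together (r from -0.20 to 0.06; -0.28 to 0.06 for aged against young). The causes were not tested. Of the single peaks and sums named, 314 values kept their side of the threshold, 115 lost it and 1 gained it.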
